A study of Homo sapiens with 2 samples.

Results

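The genes for the protein parts of the mitochondrial ribosome were examined in a list of RNA regions recovered with YTHDF3 from KYSE30 cells. They were chosen by name alone, as the protein-coding genes called MRPL or MRPS plus digits, with an optional letter and no hyphen, by a rule that uses no measured value. The RefSeq table of GRCh38.p14 held 77 such genes among the 19974 protein-coding genes of the autosomes and the X chromosome. Of the 77, 49 are named MRPL for the large subunit and 28 MRPS for the small subunit, although the proteins of MRPS18A and MRPS30 sit in the large one. KYSE30 is an established human cell line from esophageal squamous cell carcinoma, grown here in RPMI1640 with serum and given no treatment. The data are 1 library of RNA recovered with an antibody against YTHDF3 (RNA immunoprecipitation, RIP), 1 input library of the same cells, and 18466 regions that the authors called as enriched in RIP over input, here named peaks. The series asks which messenger RNAs YTHDF3 binds under endogenous conditions. With 1 library of each kind and no control antibody among the samples, there is no replicate error and no test between conditions, and nonspecific recovery was not separated from binding. Fold enrichments, p-values and adjusted p-values of peaks are the authors' own, compare the reads of these 2 libraries only, and come without read counts, so the depth behind them is unknown.

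Mitochondria translate the few proteins encoded in their own genome on a ribosome of their own. Its ribosomal RNAs come from the mitochondrial genome, whereas all of its proteins are encoded in the nucleus, made in the cytosol and imported. Some of these proteins have counterparts in the bacterial ribosome, and others are found only in mitochondria. YTHDF3 is a cytoplasmic protein that binds RNA carrying N6-methyladenosine (m6A), and works with YTHDF1 and YTHDF2 in the translation and decay of such RNA.

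A peak was listed for 30 of the 77 genes (39.0%), beside 7999 of the 19974 protein-coding genes (40.0%). The share of these genes on the list was therefore close to that of protein-coding genes at large. Their fold enrichments were lower. The median of the best fold enrichment, the RIP over input ratio of a gene's most enriched peak, was 3.18 over the 30 genes (quartiles 1.91 and 4.77) and 7.53 over all 7999 protein-coding genes with a peak (quartiles 4.39 and 11.3). With the median over each gene's peaks in place of its best peak, the 2 values were 3.18 and 5.75. Only 7 of the 77 genes (9.09%) had a peak at or above 5.02, the median fold enrichment of all peaks, beside 28.7% of protein-coding genes. By p, the members lay on both sides of the whole. The median of the best p was 1.3e-04 over the 30 genes and 1.4e-07 over all protein-coding genes with a peak, so the typical member had the larger p. With the 10% of peaks of smallest p, those with p of at most 7.9e-38, 9 of the 77 genes (11.7%) had a peak, beside 7.99% of protein-coding genes. With peaks at an adjusted p under 0.05 the counts were 24 of 77 (31.2%) and 34.0%. The 9 genes were MRPL14, MRPL16, MRPL27, MRPL34, MRPL36, MRPL44, MRPS15, MRPS26 and MRPS34. Without regions that share a base with another gene's region the share was 35.1% beside 35.3%, and without those overlapped over at least 50% of their span 37.7% beside 37.7%. Without regions over 10000 bases it was 35.1% beside 31.1%, and through current symbols alone 39.0% beside 38.2%. These shares and medians are descriptions with no test. A listed peak requires RNA from its region, which a gene that overlaps it could also supply. Expression was not measured apart from the peaks.

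**Figure D1:**
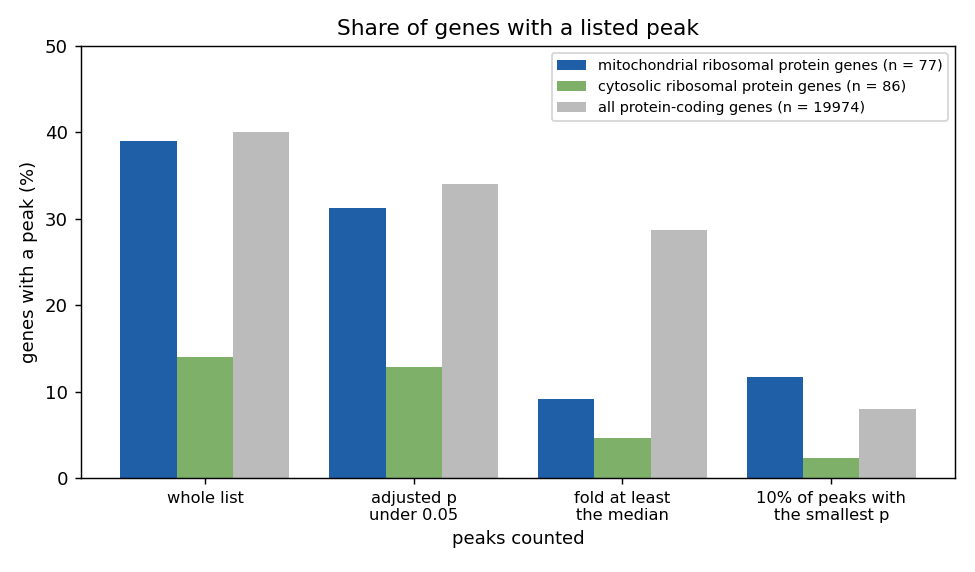
Share of genes with at least 1 listed peak (vertical axis, percent) when the whole list is counted, when only peaks with an adjusted p under 0.05, with a fold enrichment of at least 5.02 or among the 10% of smallest p are counted, for 77 mitochondrial ribosomal protein genes, 86 cytosolic ribosomal protein genes and 19974 protein-coding genes. Mitochondrial ribosomal protein genes stand at 39.0% beside 40.0% of all genes for the whole list, and at 9.09% beside 28.7% for the higher fold enrichments.

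By name, MRPS genes had a peak in 13 of 28 cases (46.4%) and MRPL genes in 17 of 49 (34.7%). The share over all protein-coding genes, 40.0%, lay between the 2, and differences between subunits and classes were not tested. Sorted by origin, proteins with a bacterial counterpart had a peak in 10 of 30 genes of the large subunit and 8 of 16 of the small one. Proteins found only in mitochondria had one in 7 of 21 genes of the large subunit, to which MRPS18A and MRPS30 were counted because their proteins sit there, and in 5 of 10 of the small one. The share was 33.3% in both classes of the large subunit and again equal between both classes of the small one. The medians of the best fold enrichment over genes with a peak lay between 2.09 in the mitochondria-specific small subunit class and 3.62 in its bacterial-type counterpart. All 4 class medians were under the 7.53 of protein-coding genes with a peak.

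Among large subunit proteins with a bacterial counterpart, MRPL14 had the largest fold enrichment. Its protein lies at the face that meets the small subunit. The single MRPL14 peak had a fold enrichment of 11.3 with a p listed as 0, and it ran over chromosome 6 from 44113454 to 44127457 (hg38), the whole length of the gene. Its 544 bases nearest the 5' end also fell in a peak of the opposite-strand gene TMEM63B, which was listed at 2.20 with an adjusted p of 0.074. MRPL14 was the only one of the 7 genes with a fold enrichment of at least 5.02 whose peak was also among the 10% of smallest p.

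MRPL34, MRPL16 and MRPL36 had smaller fold enrichments with very small p-values. The MRPL34 peak stood at 4.23 with a p of 1e-125, and MRPL36 at 3.46 with a p of 1e-123. For MRPL16, the counterpart of bacterial L16, the fold enrichment was 3.36 with a p of 1e-103 over 98.8% of the gene. These 3 peaks lay in the part of the list with moderate fold and extreme p. The whole MRPL34 region, chromosome 19 from 17292609 to 17306843, lay inside a peak that the list assigns to ABHD8 on the other strand, at a fold enrichment of 13.8 (adjusted p 0.00055). Whether reads were assigned by strand is not given in the sources used here, and the part of ABHD8 in the MRPL34 value was not tested.

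MRPL27, whose bacterial counterpart reaches toward the peptidyl transferase centre, had 2 peaks. The one at its 3' end had a fold enrichment of 1.95 and a p of 6.3e-53, and the one over its 5' portion 2.51 with a p of 5e-20. The larger fold therefore went with the larger p. MRPL20 reached 2.89 (adjusted p 0.0049), MRPL9 1.85 (0.020) and MRPL15 1.34 (0.029). The MRPL9 and MRPL15 peaks covered the start of their genes, MRPL9 over 3.61% and MRPL15 over 10.4% of the gene's length, and all 148 bases of the MRPL9 region are also annotated as OAZ3 on the opposite strand. MRPL21 and MRPL28 were listed at fold enrichments of 4.39 and 2.09 with adjusted p-values of 0.33 and 0.11.

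Of the large subunit proteins found only in mitochondria, MRPL52 had the largest fold enrichment, 11.3, as large as that of MRPL14. Its adjusted p was 0.041, however, and its region of 328 bases covered only the 3' end of the gene, on chromosome 14 from 22834710 to 22835037. MRPL14 and MRPL52 show that equal fold enrichments of this list could carry p-values of 0 as listed and 0.0040. MRPL57 stood at 6.27 with an adjusted p of 7.9e-23 over 93.8% of its gene. MRPL44, whose protein is related to ribonuclease III, stood at 3.0 with an adjusted p of 6.3e-46 over the 3' part of its gene.

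MRPL43 had 2 unlike peaks. One began near the 3' end of the gene and ran 8362 bases past it, on chromosome 10 from 100969458 to 100978954, at a fold enrichment of 8.78 (adjusted p 0.091). Most of that region, 9451 bases, is annotated as the gene SEMA4G on the opposite strand. The other peak lay within MRPL43 at 1.33 (adjusted p 0.024), with 1574 of its 2528 bases annotated as SEMA4G too and 508 of them (20.1%) under a SEMA4G peak at 5.02. The rest of this class were MRPL46 at 2.51 (adjusted p 0.10), MRPL54 at 1.88 (0.026) and MRPL49 at 1.48 (0.095). The position of MRPL43 among the genes of larger fold enrichment thus rests on the peak that reaches past its annotated end.

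**Figure D2:**
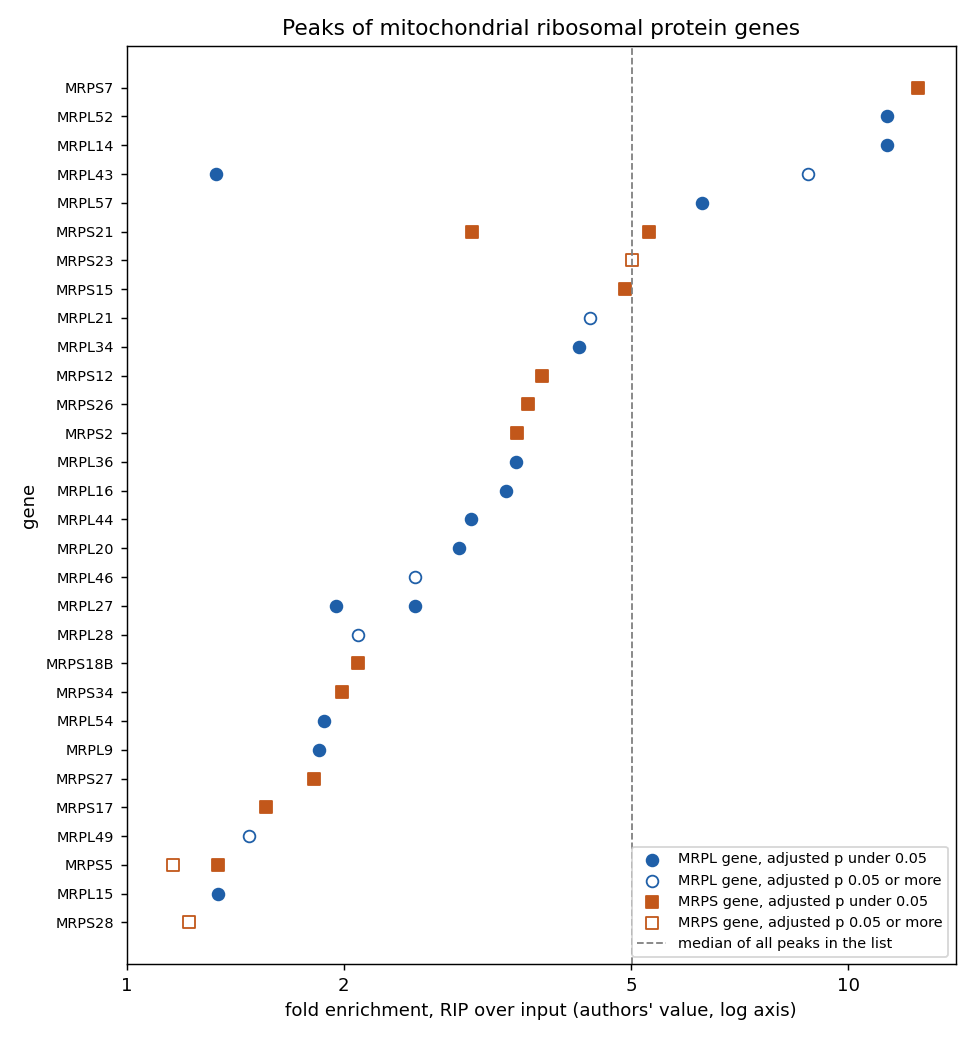
Fold enrichment of every peak of the 30 genes (horizontal axis, RIP over input, log scale), one gene per line in order of its best peak; circles are MRPL genes, squares MRPS genes, filled symbols have an adjusted p under 0.05, and the dashed line marks 5.02, the median of all peaks. Most symbols lie left of the line, and MRPS7, MRPL52 and MRPL14 lie above 10.

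In the small subunit, MRPS7 had the largest fold enrichment of all mitochondrial ribosomal protein genes. Its protein, the counterpart of bacterial S7, helps to form the head of the subunit. The MRPS7 peak had a fold enrichment of 12.5 with an adjusted p of 0.0020, and its 958 bases lay in the middle of the gene, on chromosome 17 from 75263487 to 75264444. MRPS21 had 2 peaks that between them covered nearly the whole gene. The longer one stood at 5.30 with an adjusted p of 4e-12, and the shorter one at the 5' end at 3.01 with 0.035. MRPS15 stood at 4.90 with a p of 6.3e-85, over the full gene.

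MRPS12, the counterpart of the bacterial protein at the decoding centre, stood at 3.76 with an adjusted p of 6.3e-32. MRPS2 stood at 3.47 with an adjusted p of 3.2e-15, and 28.3% of its region was shared with a peak on the opposite strand named RP11-426A6.5 (fold enrichment 12.5). MRPS5, whose bacterial counterpart lines the messenger RNA entry, had peaks at 1.34 (adjusted p 5.1e-07) and 1.16 (0.056). MRPS17 was listed at 1.56 (0.0020) for a region of 91 bases, and MRPS28 at 1.22 (0.095), the lowest best fold enrichment of the 30 genes. All 25693 bases of the MRPS28 region are also annotated as the gene TPD52-MRPS28, which had no listed peak. Bacterial-type small subunit genes therefore spanned the whole range seen in the group, from 1.22 to 12.5.

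The mitochondria-specific small subunit genes were led by size of fold by MRPS23, at 5.02 with an adjusted p of 0.091. By p they were led by MRPS26, whose peak had a fold enrichment of 3.60 and a p of 1e-273, the smallest of the group after MRPL14. MRPS34 stood at 1.99 with a p of 1e-114, again over the full gene. In its peak region, 346 bases are also annotated as EME2 on the opposite strand. MRPS18B was listed at 2.09 (adjusted p 7.9e-25) and the pentatricopeptide repeat protein gene MRPS27 at 1.82 (0.0012), both for short regions at the 3' end. MRPS18A and MRPS18C, the relatives of MRPS18B, had no listed peak. For 6 of the 30 genes no peak had an adjusted p under 0.05, namely MRPL21, MRPL28, MRPL46, MRPL49, MRPS23 and MRPS28.

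**Figure D3:**
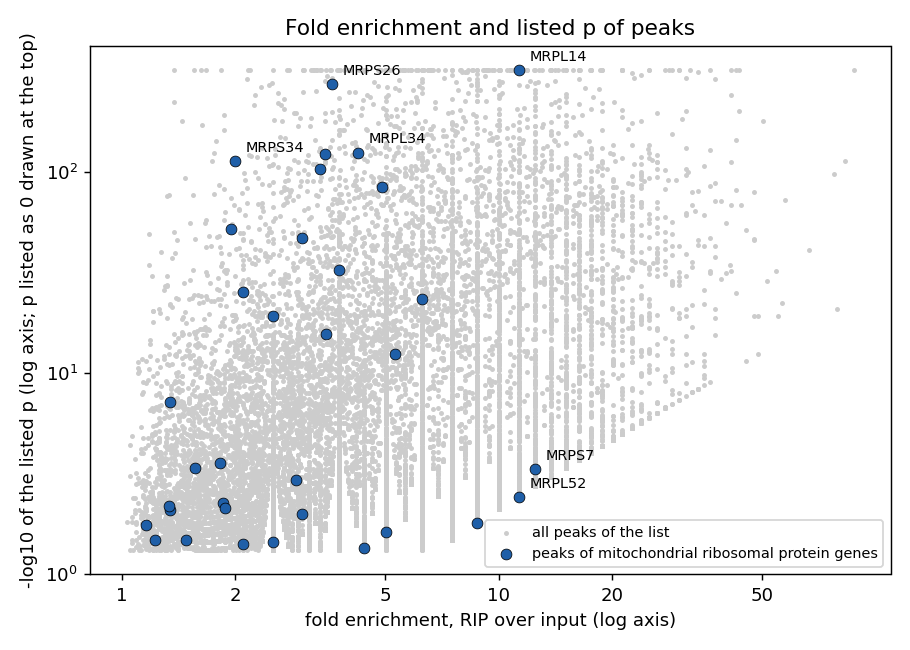
Fold enrichment (horizontal axis, log scale) against minus log10 of the listed p (vertical axis, log scale, with a p listed as 0 drawn at the top) for all 18466 peaks in grey and the 34 peaks of mitochondrial ribosomal protein genes in blue. MRPS26, MRPL34 and MRPS34 combine fold enrichments of 3.60, 4.23 and 1.99 with p-values of 1e-114 or less, whereas MRPS7 and MRPL52 stand at 12.5 and 11.3 with p-values of 0.00047 and 0.0040.

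Fold and p therefore ordered the 34 peaks of these genes differently. A fold enrichment under 2 was listed for 12 of them (35.3%), beside 13.3% of all peaks of protein-coding genes, and one of 10 or more for 3 (8.82%), beside 20.9%. The adjusted p was under 0.05 for 26 of the 34 (76.5%), beside 74.7%. Fold enrichments of the list pile up on whole multiples of a common step, which shows in the plot of fold against p as vertical lines. Of the 34 values, 9 (26.5%) were such multiples within rounding, beside 49.5% for protein-coding genes, and they included all 3 values of 10 or more. What sets the step was not tested.

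The 47 genes without a listed peak covered many well-known parts of the ribosome. In the large subunit these were MRPL1, MRPL2, MRPL3, MRPL4, MRPL10, MRPL11, MRPL12, MRPL13, MRPL17, MRPL18, MRPL19, MRPL22, MRPL23, MRPL24, MRPL30, MRPL32, MRPL33, MRPL35, MRPL47 and MRPL55, which have bacterial counterparts. MRPL10, MRPL11 and MRPL12 form the base and stalk that bind the translation factors, and none of them was on the list. A peak was listed for only 40.0% of all protein-coding genes, so most had none, and this absence is a description only. Without a peak among the mitochondria-specific genes were MRPL37, MRPL38, MRPL39, MRPL40, MRPL41, MRPL42, MRPL45, MRPL48, MRPL50, MRPL51, MRPL53, MRPL58, MRPS18A and MRPS30. MRPL45 anchors the ribosome at the inner membrane, and MRPL58 codes for a peptidyl-tRNA hydrolase built into the ribosome. In the small subunit, MRPS6, MRPS9, MRPS10, MRPS11, MRPS14, MRPS16, MRPS18C and MRPS24 of the bacterial type and MRPS22, MRPS25, MRPS31, MRPS33 and MRPS35 of the mitochondria-specific type had none.

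For 2 of these genes the file holds peaks under the name of another gene in the same place. MRPS6 contains SLC5A3, a gene for an inositol carrier on the same strand, and 6 SLC5A3 peaks with fold enrichments from 3.55 to 11.3 lay inside the MRPS6 gene. The one with the smallest adjusted p (5e-44) had a fold enrichment of 9.62. In MRPS25, 3 peaks named NR2C2 on the opposite strand, with fold enrichments from 3.14 to 5.02, lay inside the gene. MRPS24 had no row, while 1 peak was listed under the readthrough name URGCP-MRPS24, which the naming rule leaves out. That peak shared no base with the annotated MRPS24 gene. Reads from genes that share bases can be assigned to either name, so the absence of a peak for MRPS6 and MRPS25 is uncertain.

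Most of these genes are shorter than the median protein-coding gene, and among them it was the short ones that had a peak in the larger share. The median genomic length, introns included, was 8618 bases over the 77 genes and 24170 over all protein-coding genes. Across all protein-coding genes, the share with a peak went from 24.3% in the shortest of 4 equal length bins (up to 8596 bases) through 38.9% and 47.0% to 2499 of 4994 genes in the longest. Of the mitochondrial ribosomal protein genes, 18 of 38 in the shortest bin had a peak (47.4%), 9 of 23 in the second (39.1%), 1 of 10 in the third and 2 of 6 in the longest. The 30 genes with a peak had a median length of 5351 bases and the 47 without one 11055 bases. The longer bins hold few members, so their shares are loose.

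**Figure D4:**
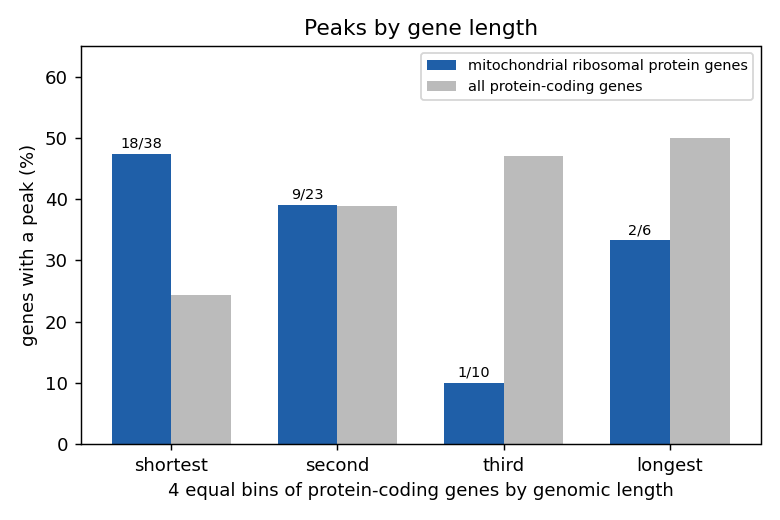
Share of genes with a listed peak (vertical axis, percent) in each of 4 equal bins of all protein-coding genes by genomic length, for mitochondrial ribosomal protein genes (blue, with the count of genes with a peak over genes in the bin) and all protein-coding genes (grey). The blue bar is 47.4% beside 24.3% in the shortest bin and 10.0% beside 47.0% in the third.

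Most of these genes had 1 peak, and the extent of the gene it covered varied widely. A single peak was listed for 26 of the 30 genes (86.7%), beside 43.9% of protein-coding genes with a peak. MRPL27, MRPL43, MRPS5 and MRPS21 had 2 each. The widest peak of a gene covered a median of 36.5% of its length, beside 49.0% for protein-coding genes with a peak. In 9 genes (30.0%) 1 peak covered at least 90% of the gene, beside 21.9%: these were MRPL14, MRPL16, MRPL34, MRPL54, MRPL57, MRPS15, MRPS21, MRPS26 and MRPS34. Such regions include introns, and which exon, intron or untranslated part carried the reads cannot be read from them. Of the 13 peaks that spanned at most 1000 bases, 4 had their midpoint in the last 10% of the gene (MRPL27, MRPL52, MRPS18B and MRPS27) and 3 in the first 10% (MRPL9, MRPS17 and MRPS21). The share over short peaks of all protein-coding genes was not counted, so no preference for an end can be read. The upstream edge of the region lay within 100 bases of the annotated gene start for 10 peaks (29.4%, beside 17.1%), and the downstream edge within 100 bases of the gene end for 12 (35.3%, beside 14.2%). The 30 genes are short, with a median length of 5351 bases beside 24170 for all protein-coding genes. The part of gene length in the number of peaks and in these edge shares was not tested.

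**Figure D5:**
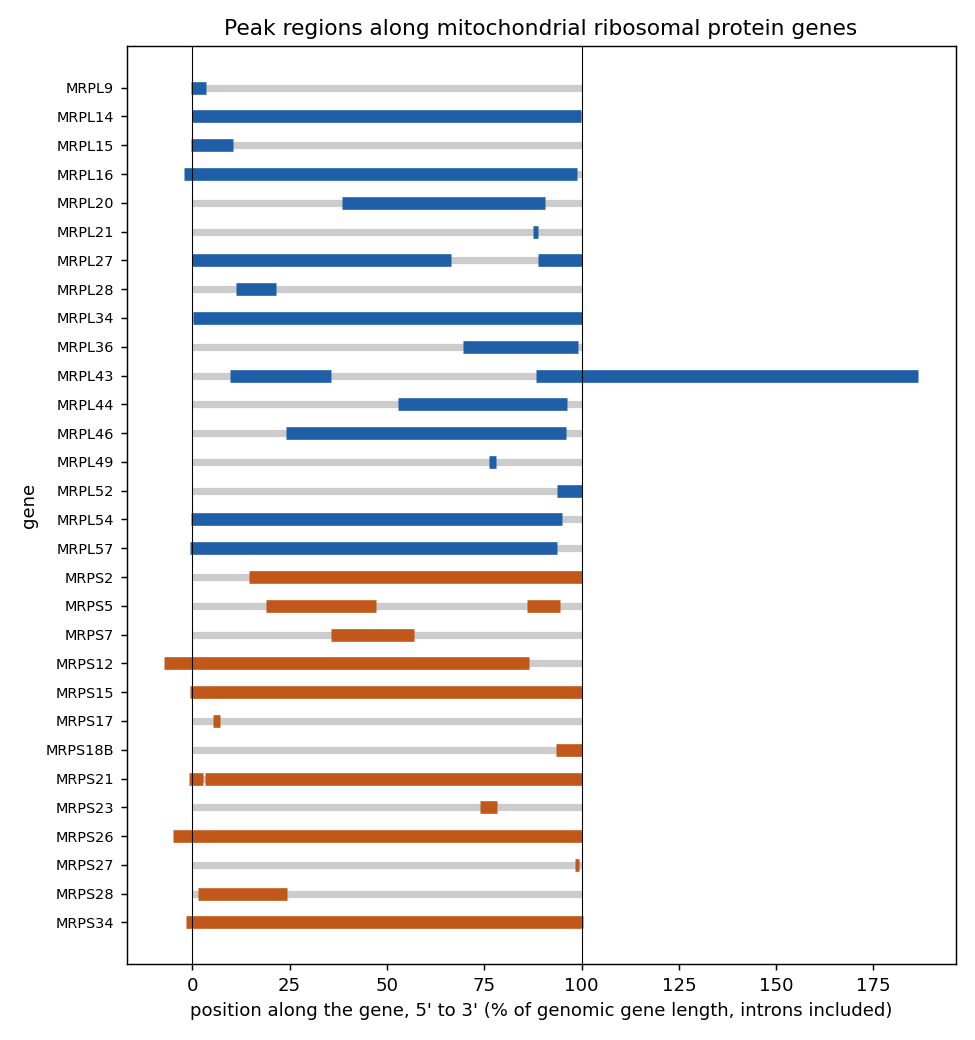
Extent of each peak region along its gene (horizontal axis, percent of the genomic gene length from the 5' to the 3' end, introns included) for the 30 genes with a peak, MRPL genes in blue and MRPS genes in orange over a grey bar for the gene; regions narrower than 1% are drawn 1% wide. In 9 genes a single bar lies over at least 90% of their length, and the second MRPL43 region runs past the 3' end.

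Some regions began before the annotated start of the gene. This held for 11 of the 34 peaks (32.4%), beside 13.5% of the peaks of protein-coding genes. In 5 genes the region began 50 or more bases upstream: 160 bases in MRPS12, 141 in MRPS21, 107 in MRPS26, 94 in MRPL16 and 53 in MRPS15. The RefSeq sequences around the start of the leading 3 (GRCh38.p14, plus strand, 250 bases before the start and 50 after it) show where the listed region sets in. Capitals mark the bases inside the peak region, and all end with the 50 bases after the annotated start.
MRPS12, chr19:38930694-38930993: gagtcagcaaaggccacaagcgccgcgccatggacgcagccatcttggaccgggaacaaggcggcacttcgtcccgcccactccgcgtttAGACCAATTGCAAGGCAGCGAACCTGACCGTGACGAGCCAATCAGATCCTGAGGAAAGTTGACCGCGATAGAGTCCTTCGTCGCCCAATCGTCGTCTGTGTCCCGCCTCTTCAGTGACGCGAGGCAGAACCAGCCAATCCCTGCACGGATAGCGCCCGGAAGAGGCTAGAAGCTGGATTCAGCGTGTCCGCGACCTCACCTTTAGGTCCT
MRPS21, chr1:150293611-150293910: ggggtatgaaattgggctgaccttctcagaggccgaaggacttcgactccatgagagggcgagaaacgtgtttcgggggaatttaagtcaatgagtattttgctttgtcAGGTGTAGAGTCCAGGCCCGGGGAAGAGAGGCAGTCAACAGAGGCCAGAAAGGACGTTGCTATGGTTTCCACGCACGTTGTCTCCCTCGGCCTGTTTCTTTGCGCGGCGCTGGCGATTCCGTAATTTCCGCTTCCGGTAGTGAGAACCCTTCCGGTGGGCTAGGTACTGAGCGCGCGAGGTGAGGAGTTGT
MRPS26, chr20:3045802-3046101: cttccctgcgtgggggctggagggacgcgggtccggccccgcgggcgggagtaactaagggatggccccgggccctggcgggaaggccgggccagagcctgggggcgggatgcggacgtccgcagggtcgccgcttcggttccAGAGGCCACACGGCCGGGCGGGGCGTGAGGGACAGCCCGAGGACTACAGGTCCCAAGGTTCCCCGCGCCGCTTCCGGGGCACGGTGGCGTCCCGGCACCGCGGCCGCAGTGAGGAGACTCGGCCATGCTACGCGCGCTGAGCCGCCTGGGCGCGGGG
In these 300-base windows the region took in 210 bases for MRPS12, 191 for MRPS21 and 157 for MRPS26. The letters GGACT, one form of the m6A consensus, were searched on the transcript strand, and their reverse complement AGTCC was searched for the other strand. Inside the regions, GGACT occurred 1 time in MRPS26 and not in MRPS12 or MRPS21, while AGTCC occurred 1 time each in MRPS12 and MRPS21. Over the 69 mitochondrial ribosomal protein genes found in the promoter table, 21 (30.4%) held GGACT on the transcript strand of their window, beside 26.0% of 15813 protein-coding genes. Among the 27 of them with a peak the count was 9 (33.3%), and among the 42 without one 12 (28.6%). These windows are mostly outside the mature transcript, so a match here is a description of letters only.

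The mitochondrial ribosome also has proteins under other names, and 4 of those 5 genes had a peak, beside 40.0% of all protein-coding genes. Without regions that overlap another gene's it was 2 of 5, beside 35.3%. GADD45GIP1 of the large subunit stood at a fold enrichment of 12.5 (adjusted p 1e-19) and DAP3 of the small subunit at 5.02 (6.3e-20), with 44.9% and 60.1% of their regions shared with a peak of another gene. PTCD3 and CHCHD1 also had peaks, and AURKAIP1 had none. With them, the proteins of the ribosome come to 34 of 82 genes with a peak, a share close to the 40.0% of all protein-coding genes. The ribosomal RNA of the large subunit, MT-RNR2, carried the only peak of the mitochondrial genome, at a fold enrichment of 2.89 with a p of 1e-196.

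Other genes of mitochondrial translation were counted in lists by role. Over all protein-coding genes the share with a peak was 40.0%, with a median best fold enrichment of 7.53. The median of each list that follows was under that value. Assembly factors had a peak in 21 of 24 genes (87.5%). Their median best fold enrichment was 5.02. It came to 2.78 for each gene's peak of smallest p, beside 6.27 over all protein-coding genes with a peak. Without regions that overlap another gene's it was 3.14, beside 7.53. Both alternatives were chosen after seeing the data. The leading genes were the helicase gene DDX28 at 22.6 and the GTPase gene MTG2 at 11.0. MALSU1, METTL17 and YBEY had no peak, so MALSU1, whose protein binds that of MRPL14 during assembly, was off the list while MRPL14 was on it. Aminoacyl-tRNA synthetases that serve mitochondria had a peak in 15 of 19 genes (78.9%, median 6.27), led by the prolyl and methionyl enzymes PARS2 at 18.8 and MARS2 at 11.7. Genes of mitochondrial transcription and RNA handling had one in 13 of 23 (56.5%, median 3.55), led by PTCD1 at 23.8, in a region of which 93.2% lay under a peak of a different gene, and by the poly(A) polymerase gene MTPAP at 12.3.

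Translation factors of mitochondria had a peak in 5 of 13 genes (38.5%, median 3.12), a share close to the 40.0% of all protein-coding genes. MTRFR, which codes for a factor that rescues stalled ribosomes, led at 22.9 in a region of which 84.6% lay under a peak of a different gene, and MTFMT, which formylates the initiator tRNA, followed at 9.41. The other factor genes with a peak were TSFM, TACO1 and MTIF3, at best fold enrichments of 3.12, 2.12 and 1.62. MTIF2, TUFM, GFM1 and GFM2 were among those without one. The differences between these lists were not tested, and their genes differ in length, with medians of 8618 bases for mitochondrial ribosomal proteins, 21378 for assembly factors and 33874 for the synthetases.

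For the ribosome of the cytosol, the share was smaller and the median fold enrichment near that of the mitochondrial one. Of 86 genes named as cytosolic ribosomal proteins, close relatives such as RPL7L1 included, 12 had a peak (14.0%), beside 39.0% for the mitochondrial ones. The median best fold enrichment was 3.61 beside 3.18. Both lists were thus well below the 7.53 of protein-coding genes with a peak. In the shortest length bin, 8 of 66 cytosolic and 18 of 38 mitochondrial ribosomal protein genes had a peak. Of the genes with a peak, 0 of 12 cytosolic and 9 of 30 mitochondrial ones had a peak over at least 90% of the gene. Over all protein-coding genes with a peak the share was 21.9%. The median percent of the gene under its widest peak went the other way, at 48.5% for cytosolic and 36.5% for mitochondrial genes. The genes of cytosolic ribosomal proteins have many processed pseudogenes, and how reads shared with such copies were counted is not given in the sources used here.

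The other contents of the list bear on the cell line only loosely. Of 7 markers of squamous epithelium and epithelium, 5 had a peak (KRT5, KRT14, TP63, SOX2 and CDH1), and KRT6A and EPCAM had none. A peak was also listed for 1 of 4 immune markers (CD14) and 2 of 4 of stroma and endothelium (COL3A1 and CDH5). Over all protein-coding genes the share was 40.0%. The best fold enrichments of CD14 (7.53), COL3A1 (7.53) and CDH5 (10.0) were above the largest of the epithelial markers, 5.44 for TP63. A peak does not measure expression, so these counts do not establish which cells were present.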

How the data were processed

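The sample titles gave 1 YTHDF3 RIP library and 1 input library. Per the labels' protocols, RNA was fragmented, copied with random hexamers and given molecular identifiers. The build is hg38, per the submitters' processing notes. Which aligner, caller, thresholds and strand setting were used is not given in the sources used here. Per the file headers, each deposited peak carries a ratio of RIP over input (its fold enrichment, as the authors' caller scaled it) and a p-value and adjusted p-value on a linear scale. The largest p was 0.049 and the largest adjusted p 0.33, and 147 p-values were listed as 0. Depth is unknown, so no error of a fold could be given.

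Starts were taken as counted from 0, since 786 lay 1 below their gene's start in RefSeq and 68 equalled it, and are printed counted from 1. Peaks were given to genes by current symbol (16536) or older symbol (762), on the same chromosome within 100000 bases; 23 named as dates were placed by position and 1145 were unmatched. All members matched by current symbol. Sequences are from RefSeq (GRCh38.p14). Members and lists were chosen with earlier results of these data known. Every member with a peak is named with its values, with the 2 leading genes of each other pathway list; other genes named were chosen after their values were seen. Alternatives were stricter peaks, overlaps, spans and other summaries per gene. The counting was tested on simulated peaks. Python 3.11.15 and pandas 2.3.3 were used.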

Additional observations from a re-analysis of the deposited data

How the results depend on the processing

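The number of mitochondrial ribosomal protein genes with a peak, 30, stayed within 1.5 times under 5 alternatives, at 24 with an adjusted p under 0.05, 27 without regions sharing a base with another gene's region, 29 without those overlapped over at least 50% of their span, 27 without regions over 10000 bases and 30 with current symbols only. It was 7 (4 large and 3 small subunit genes) counting only peaks whose fold enrichment reached 5.02, and 9 (6 and 3) with the 10% of peaks of smallest p; both settings keep fewer peaks by construction. The median best fold enrichment was 3.18, beside 7.53 over all protein-coding genes with a peak. It was 2.95 beside 6.27 for the peak of smallest p, and 2.89 beside 7.53 without shared regions. With the median over each gene's peaks it was 3.18 beside 5.75, and at an adjusted p under 0.05 it was 3.18 beside 7.53. The counts of the other pathway lists and the cytosolic list stayed within 1.5 times at an adjusted p under 0.05. Without regions that share a base with another gene's, an alternative chosen after seeing the data, the ribosome proteins under other names fell from 4 to 2 genes; the counts of the other lists stayed within 1.5 times. The median best fold enrichment of the assembly factors, 5.02, was 2.78 for the peak of smallest p and 3.14 without such regions, and the cause was not tested. No paired analysis was possible because there is 1 library of each kind, and without counts the depth that limits each fold enrichment is unknown.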
